A study of Homo sapiens with 6 samples.

Results

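IL6, CXCL8, GDF15, SOCS3 and TNFAIP3 encode 3 secreted cytokines and 2 inhibitors of cytokine signalling. They were taken by symbol from a deposited table of expression entries in Hep3B cells, where each symbol has 1 entry, giving 5 of 2681 entries with values. Hep3B is an established human hepatocellular carcinoma line. The cells were kept at 1% oxygen (hypoxia, 3 samples) or at 20% oxygen (normoxia, 3 samples) for 24 hours, and messenger RNA was sequenced. The labels give all 6 samples the genotype WT and list genetic modification as the treatment, and the extraction protocol speaks of subclones, without naming a gene or an allele. The labels do not state whether samples of a group were separate cultures, so p-values reflect only the spread among these 6 samples, and that spread may be technical. In bulk RNA, fewer expressing cells and less RNA per cell cannot be told apart.

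IL6 binds its receptor and gp130, and the JAK kinases then activate STAT3, which in liver cells drives the acute phase proteins. SOCS3 is induced by STAT3 and binds gp130 and JAK kinases to end the signal. CXCL8 is a chemokine that attracts neutrophils, and GDF15 is a distant member of the TGF-beta family that is secreted under cell stress and acts on the GFRAL receptor of the hindbrain. TNFAIP3, also called A20, is a ubiquitin-editing enzyme induced by NF-kB that restrains NF-kB signalling. NF-kB is a known activator of IL6, CXCL8 and TNFAIP3 transcription, while low oxygen stabilises the HIF transcription factors, which bind hypoxia response elements.

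The NF-kB type matches in front of IL6, CXCL8 and TNFAIP3 are shown because these 3 genes share that motif and changed in different directions. Sequences are RefSeq promoter sequences on GRCh38.p14, and GENCODE 29 gives the gene bounds on GRCh38. Motifs were searched on both strands in the 250 bases before each RefSeq transcript start. Capitals mark GGNNNTTCC, the NF-kB type letters, on either strand. IL6 is a protein-coding gene at chr7:22725884-22732002 on the plus strand, and its stretch, chr7:22726950-22727146, runs from 250 to 54 bases before the RefSeq start and lies within the outer gene bounds but outside GENCODE exons. CXCL8 lies at chr4:73740506-73743716 on the plus strand, and its stretch, chr4:73740319-73740505, runs from 250 to 64 bases before the RefSeq start. TNFAIP3 lies at chr6:137867188-137883312 on the plus strand, and its shown site, chr6:137867191-137867213, covers positions -68 to -46 and falls in an exon of another GENCODE transcript of the gene.
IL6: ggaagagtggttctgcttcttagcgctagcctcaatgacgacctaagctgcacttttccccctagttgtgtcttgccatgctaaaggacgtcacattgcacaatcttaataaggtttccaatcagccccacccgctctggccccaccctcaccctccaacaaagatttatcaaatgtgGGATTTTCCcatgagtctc
CXCL8: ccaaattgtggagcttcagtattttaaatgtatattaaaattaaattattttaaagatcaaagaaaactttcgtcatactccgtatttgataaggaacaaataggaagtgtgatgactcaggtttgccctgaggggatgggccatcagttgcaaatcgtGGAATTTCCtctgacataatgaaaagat
TNFAIP3: tGGAAAGTCCcgtGGAAATCCCc

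IL6 holds 1 such match, at positions -72 to -64 from the RefSeq start. The CXCL8 match at -91 to -83 reads as the motif on both strands, and CXCL8 also holds the AP-1 letters TGANTCA at -137 to -131. TNFAIP3 holds 2 adjacent NF-kB type matches on the minus strand, at -67 to -59 and at -55 to -47. It also holds the overlapping hypoxia response element core ACGTG at -77 to -73 on the plus strand and -78 to -74 on the minus strand. The letters GGNNNTTCC occur in 17.1% of 35116 RefSeq promoter windows of the same length, TGANTCA in 6.57% and ACGTG in 18.5%. SOCS3 has 2 RefSeq starts, each with 1 match to the other hypoxia response element core searched, GCGTG, found in 32.2% of windows. In the GDF15 window, chr19:18385908-18386157, none of the letters searched were found. Of its 250 bases 241 lie in GENCODE exons of the gene, whose outermost start is at 18374731. None of the windows searched held the STAT type letters TTCNNNGAA (6.57% of windows) or the ATF4 type letters TGATGNAAT (0.888%). The SOCS3 windows were chr17:78360926-78361175 and chr17:78359668-78359917, the latter with 168 of 250 bases in GENCODE exons. Neither covers the bases just before the GENCODE start of SOCS3 at 78360077, which were not searched, so absence there is not shown. A match is a description of these letters and not a measured binding site.

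**Figure D1:**
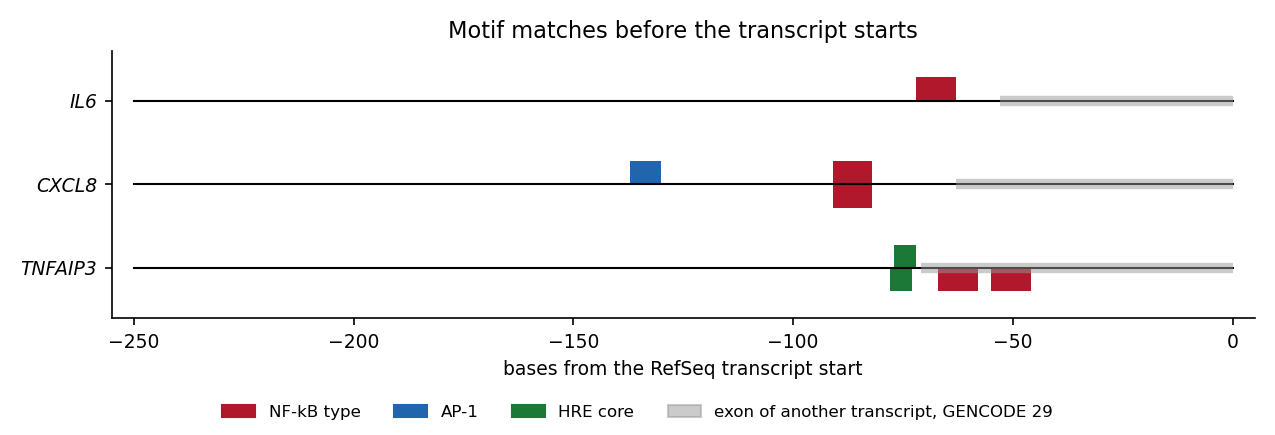
Motif matches in the 250 bases before the RefSeq transcript starts of IL6, CXCL8 and TNFAIP3, with distance from the start in bases on the horizontal axis, boxes above the line on the plus strand and below it on the minus strand. NF-kB type matches lie within 91 bases of each start, and grey bars mark exons of other GENCODE transcripts.

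The deposited table holds entries that the authors selected as changed. Its largest false discovery rate is 0.00999 and its smallest absolute log2 fold change 1.00, so a call of any entry is not independent evidence of its change, and the dispersion fitted over such entries makes p-values too small. The listed entries sum to 9905692 to 10134230 counts in the hypoxia libraries and 5474597 to 6128947 in the normoxia libraries, which are not library depths. Counts were divided by library scales recovered from the authors' log2 fold changes, and the quotients are called normalized counts below. Within each group every pair of libraries differed by more than counting error, with a chi-square statistic over its degrees of freedom of 13.1 to 268.

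IL6 and both inhibitors were higher at 1% oxygen, and CXCL8 and GDF15 were lower. In edgeR (quasi-likelihood F test, Benjamini-Hochberg over the 2675 fitted entries) all 5 genes passed, as did 100% of those entries. The 3 rises stand beside 56.7% of entries called higher, and the 2 falls beside 43.3% called lower. In normalized counts the 2 groups did not overlap for any of the 5 genes, which held for 99.6% of entries. In FPKM (fragments scaled by transcript length and library total by the authors) they did not overlap for any of the 5 either, which held for 96.4% of entries.

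IL6 (ENSG00000136244) had 50, 37 and 51 counts in hypoxia replicates 1, 2 and 3, against 0 counts in each of the 3 normoxia libraries. It was thus detected in every hypoxia library and in no normoxia library. Exact 95% Poisson intervals of the hypoxia counts, covering counting error only, were 37.1 to 65.9, 26.1 to 51.0 and 38.0 to 67.1. Normalized counts averaged 48.4 ± 3.99 in hypoxia and 0 in normoxia (SD, n = 3 each). Against a floor of 3 counts over the normoxia group, which is 0.942 normalized counts per library, IL6 was at least 51.4-fold higher (edgeR adjusted p = 8.70e-05). The authors' deposited table gives a log2 fold change of 8.13 for IL6, a value that depends on how a baseline of 0 is treated. By that value IL6 ranked 10 of the 1518 entries that were higher, and it is 1 of 10 fitted entries with 0 counts in all normoxia libraries. Its level was low, at 0.955, 0.812 and 0.939 FPKM in hypoxia, against 0 FPKM in all normoxia libraries. Other genes overlap 20.7% of the IL6 exonic bases, with the largest share from AC073072.1 on the opposite strand. Reads of IL6 and AC073072.1 cannot be told apart there if counting ignored strand. The strand setting is not given in the sources used here.

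CXCL8 (ENSG00000169429) had 20, 6 and 49 counts in hypoxia replicates 1, 2 and 3, against 99, 156 and 191 counts in normoxia replicates 1, 2 and 3. Its normalized counts were 20.1, 7.11 and 49.1 in hypoxia, against 93.6, 153 and 172 in normoxia. Each hypoxia library was below each normoxia library, and the hypoxia libraries were far apart. The means were 25.5 ± 21.5 in hypoxia and 139.6 ± 41.0 in normoxia (SD, n = 3 each), 5.48-fold lower in hypoxia. The log2 fold change was -2.43 with a standard error (SE) of 0.58 (edgeR adjusted p = 0.00377). Without hypoxia replicate 3 the fitted log2 fold change was -3.32, and without hypoxia replicate 2 it was -2.01. Exact 95% Poisson intervals of the hypoxia counts were 12.2 to 30.9, 2.20 to 13.1 and 36.3 to 64.8. The 49 counts of hypoxia replicate 3 thus exceed those of hypoxia replicates 1 and 2 beyond counting error. CXCL8 ranked 68 of the 1157 entries that were lower.

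GDF15 (ENSG00000130513, chr19:18374731-18389176, plus strand) had 673, 730 and 532 normalized counts in hypoxia replicates 1, 2 and 3, against 1871, 1350 and 1193 in normoxia replicates 1, 2 and 3. The highest hypoxia library stayed below the lowest normoxia library. Means were 645 ± 102.1 in hypoxia and 1471 ± 355 in normoxia (SD, n = 3 each), 2.28-fold lower in hypoxia. The log2 fold change was -1.19 (SE 0.22, edgeR adjusted p = 0.000979). That fall ranked 847 of the 1157 entries that were lower, whose median log2 fold change was -1.36, so GDF15 was among the smaller falls of the table.

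SOCS3 (ENSG00000184557, chr17:78356778-78360077, minus strand) had 1428, 1289 and 1201 normalized counts in hypoxia replicates 1, 2 and 3, against 287.5, 288 and 297 in normoxia replicates 1, 2 and 3. The hypoxia libraries were all far above the normoxia libraries, and the 3 normoxia libraries lay close together. Means were 1306 ± 115 in hypoxia and 291 ± 5.28 in normoxia (SD, n = 3 each), 4.49-fold higher in hypoxia. The log2 fold change was 2.17 (SE 0.15, edgeR adjusted p = 1.33e-05). SOCS3 ranked 424 of the 1518 entries that were higher, whose median log2 fold change was 1.61.

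TNFAIP3 (ENSG00000118503) had 923, 610.3 and 776 normalized counts in hypoxia replicates 1, 2 and 3, against 269.5, 345 and 321 in normoxia replicates 1, 2 and 3. The lowest hypoxia library, replicate 2, was still above the highest normoxia library. Means were 769.98 ± 157 in hypoxia and 312 ± 38.6 in normoxia (SD, n = 3 each), 2.47-fold higher in hypoxia. The log2 fold change was 1.30 (SE 0.21, edgeR adjusted p = 0.000497), and the rise ranked 1067 of 1518. With libraries scaled by their listed totals in place of the recovered scales the value was 0.35 (edgeR adjusted p = 0.245), and the call ended. Those totals are sums over entries selected as changed and not library depths, so the lost call cannot decide whether TNFAIP3 changed. The same scaling moved the median of all fitted entries by -0.96 on the log2 scale and left 39.7% of called entries higher, against 56.7% with the recovered scales. Under it SOCS3 kept a log2 fold change of 1.20, GDF15 of -2.15 and CXCL8 of -3.37, and all 3 still passed.

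**Figure D2:**
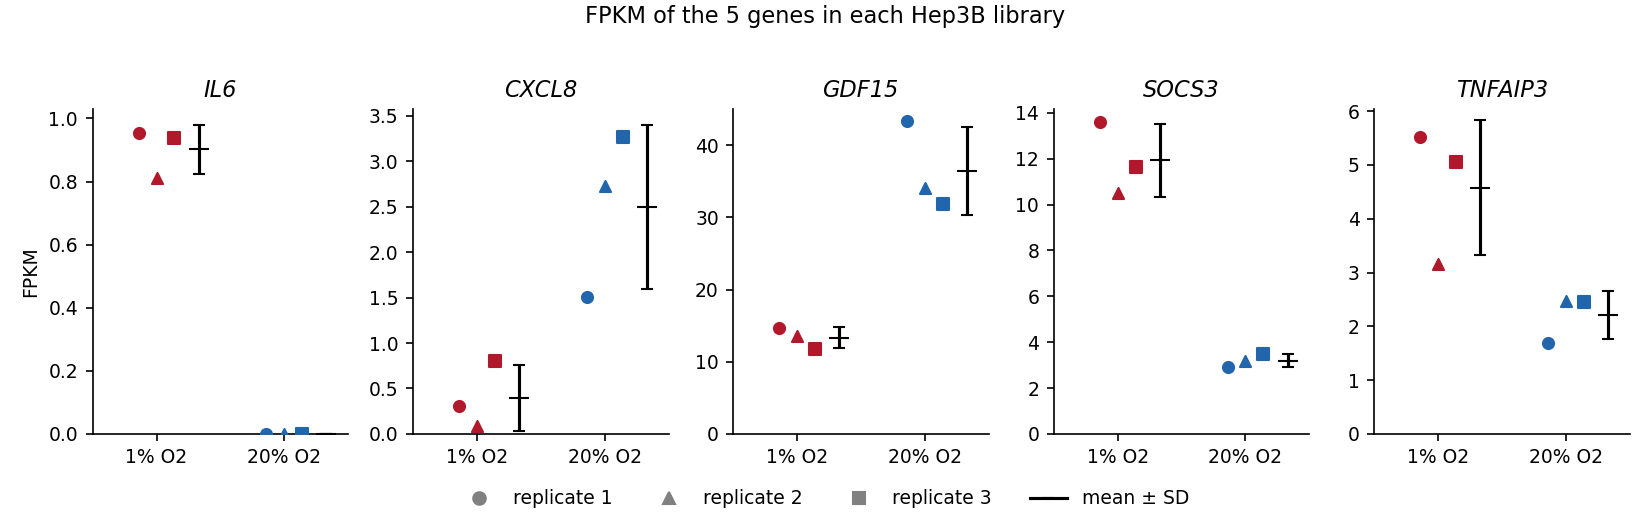
FPKM of IL6, CXCL8, GDF15, SOCS3 and TNFAIP3 in each library at 1% oxygen (red) and 20% oxygen (blue), 1 panel per gene with its own axis from 0, and mean ± SD of 3 libraries in black. IL6, SOCS3 and TNFAIP3 are higher in every hypoxia library and CXCL8 and GDF15 lower, with IL6 at 0 in all normoxia libraries.

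FPKM relate counts to transcript length and allow levels to be set beside each other between genes. At 1% oxygen, GDF15 averaged 13.3 ± 1.46 FPKM, SOCS3 11.9 ± 1.57, TNFAIP3 4.58 ± 1.25, IL6 0.902 ± 0.0782 and CXCL8 0.395 ± 0.366 (SD, n = 3). At 20% oxygen, GDF15 averaged 36.5 ± 6.12 FPKM, SOCS3 3.19 ± 0.279, CXCL8 2.50 ± 0.902 and TNFAIP3 2.21 ± 0.447, and IL6 was at 0 (SD, n = 3). GDF15 was the most abundant of the 5 in both groups. At 1% oxygen its libraries (11.7 to 14.6 FPKM) overlapped those of SOCS3 (10.5 to 13.6), whereas at 20% oxygen GDF15 (31.9 to 43.4) stood far above SOCS3 (2.92 to 3.48). The lowest IL6 library at 1% oxygen, 0.812 FPKM, was just above the highest CXCL8 library, 0.798 FPKM. At 20% oxygen CXCL8 (1.51 to 3.27 FPKM) overlapped SOCS3 and also TNFAIP3 (1.69 to 2.47), so these neighbours were not separated by their spread. Among all fitted entries, the mean FPKM of GDF15 was at the 71.1 percentile in hypoxia and the 86.9 percentile in normoxia. SOCS3 was at the 69.1 percentile in hypoxia and the 40.4 percentile in normoxia, and IL6 reached the 15.3 percentile in hypoxia. The median entry had 4.53 FPKM in hypoxia and 5.10 FPKM in normoxia. In FPKM the SOCS3 ratio was 3.73, against 4.49 in normalized counts, and the TNFAIP3 ratio was 2.08, against 2.47, because using the library totals behind the FPKM in place of the recovered scales shifted the median entry by -0.27 (log2).

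The 5 genes differed in how far the libraries of a group lay apart. The highest CXCL8 library at 1% oxygen had 6.91 times the normalized count of the lowest, where the median entry had a ratio of 1.43. On a log2 scale with 0.5 added, that range was at the 99.7 percentile of entries. At 20% oxygen the CXCL8 ratio was 1.84, at the 81.4 percentile, where the median entry had 1.41. SOCS3 was at the other end, with a ratio of 1.19 in hypoxia and of 1.03 in normoxia, where its range was at the 1.20 percentile. IL6 had a hypoxia ratio of 1.17 despite its low counts. GDF15 had ratios of 1.37 in hypoxia and 1.57 in normoxia, and TNFAIP3 of 1.51 in hypoxia and 1.28 in normoxia.

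**Figure D3:**
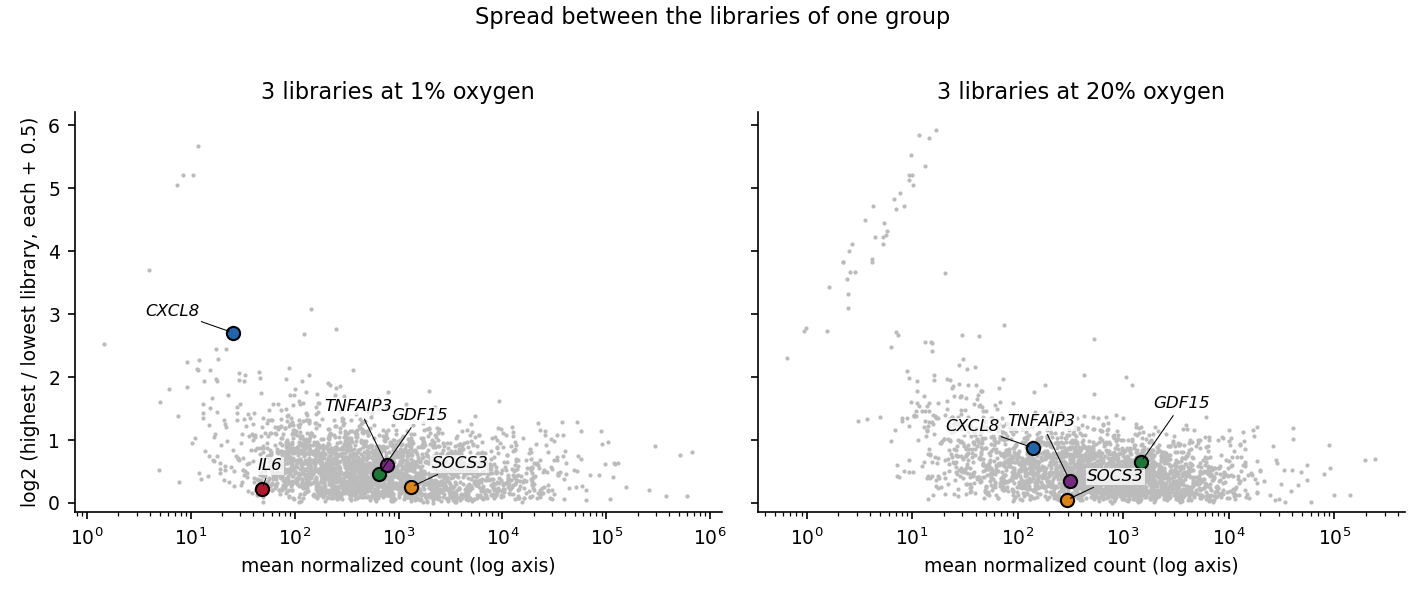
Range of the 3 libraries of a group, as the log2 ratio of the highest to the lowest normalized count with 0.5 added to each, against the mean normalized count on a log axis, for the fitted entries (grey) with a mean above 0 in that group. CXCL8 stands above most entries at 1% oxygen (left), SOCS3 lies near 0 at 20% oxygen (right), and IL6 is missing there because its normoxia counts were 0.

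Some of this spread moved with the base composition and the length of transcripts. GC content of the longest GENCODE transcript was 33.4% for CXCL8, at the 0.121 percentile of 2488 entries, 44.5% for IL6, 49.5% for TNFAIP3, 60.0% for SOCS3 and 62.9% for GDF15, at the 89.3 percentile. Across 2404 entries, the deviation of a library from its group mean correlated with GC content at r = 0.58 in hypoxia replicate 2 and r = 0.51 in normoxia replicate 1. It correlated at r = -0.39 in hypoxia replicate 1, r = -0.50 in hypoxia replicate 3, r = -0.07 in normoxia replicate 2 and r = -0.51 in normoxia replicate 3. With log2 transcript length the same deviations correlated at 0.28, -0.47 and 0.44 in hypoxia replicates 1, 2 and 3, against -0.41, 0.06 and 0.41 in normoxia replicates 1, 2 and 3. These are correlations across genes of the same libraries and serve as a description. CXCL8 lay below its group mean in the 2 libraries with a positive correlation with GC content, with log2 deviations of -1.34 in hypoxia replicate 2 and -0.53 in normoxia replicate 1. GDF15 lay above its group mean in the same 2 libraries, with deviations of 0.19 in hypoxia replicate 2 and 0.37 in normoxia replicate 1. TNFAIP3 deviated by -0.31 in hypoxia replicate 2 and -0.20 in normoxia replicate 1, and SOCS3 by -0.02 in each. Thus CXCL8 and TNFAIP3 were lowest and GDF15 highest of their group in those libraries. Whether composition or length plays a part in the differences between oxygen levels was not tested.

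**Figure D4:**
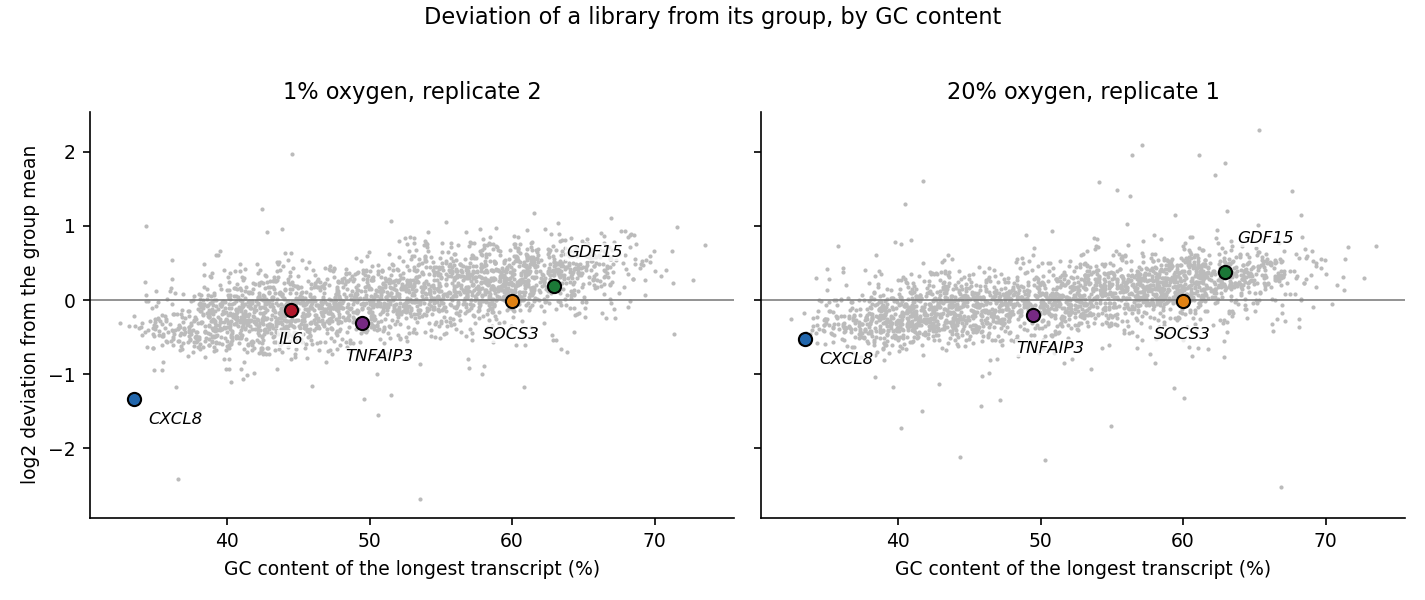
Deviation of hypoxia replicate 2 (left) and normoxia replicate 1 (right) from the group mean in log2 normalized counts, against the GC content of the longest transcript in percent, for entries with a mean normalized count of at least 50 (grey) and the 5 genes (coloured). Entries of high GC content lie above 0 in both libraries, and CXCL8, at 33.4% GC, lies below 0 in both, at -1.34 and -0.53. IL6 is not drawn on the right because its normoxia counts were 0.

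The genes around these 5 were described with 9 pathway lists, drawn up like the 5 genes with earlier results of these data known. Counts and medians of a list include those of the 5 genes that are on it. Genes without an entry can be unchanged, changed with less certainty or not expressed, and are not analysed here. That applies to IL6R, IL6ST (gp130), STAT3, NFKB1, RELA, NFKBIA and TNF. Every listed gene with an entry passed edgeR and separated the groups in normalized counts, as 100% and 99.6% of entries did, so the counts by direction carry the description. Of all fitted entries 56.7% were higher and 43.3% lower, and their median log2 fold change was 1.11. No deposited absolute log2 fold change is under 1.00, so such a median is largely set by the direction of most entries. Differences of the lists from these shares were not tested. Listed totals are sums over entries selected as changed, so a call lost under them cannot decide whether a gene changed. With libraries scaled by listed totals, 23 of 68 other genes with an entry on any list lost their call. Of the genes named below these were IL1B, IL32, IL1RAP, OSMR, STAT2, STAT6, CISH, TNIP1, ICAM1, AUH, VLDLR, DDIT3, SMAD7 and BMP2, with log2 fold changes of 0.08 to 0.67 under that scaling (edgeR adjusted p = 0.0835 to 0.716).

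Of 36 inflammatory ligands, 13 had an entry, IL6, CXCL8 and GDF15 among them. Of these 13, 8 were higher and 5 lower at 1% oxygen, with a median log2 fold change of 1.29. The death ligand gene TNFSF10 had 199, 152 and 113 normalized counts in hypoxia, against 26.5, 9.80 and 13.5 in normoxia (log2 fold change 3.21, SE 0.42). Both interleukin-1 genes rose, IL1A by 2.21 (SE 0.32) and IL1B by 1.60 (SE 0.34) on the log2 scale. IL11, which like IL6 signals through gp130, had 292, 396 and 228 normalized counts in hypoxia, against 95.5, 47.0 and 81.2 in normoxia (log2 fold change 2.03, SE 0.34). IL32 rose by 1.37 (SE 0.37). CXCL8 and GDF15 were not alone in falling, since the membrane-bound chemokine CX3CL1 fell by 1.92 (SE 0.37). IL18 (log2 fold change -1.36) and the macrophage growth factor CSF1 (-1.04) make up the 5 lower genes and were named after their values were seen.

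Of 26 receptor genes 2 had an entry, and both rose: IL1RAP, the co-receptor of interleukin-1, by 1.63 (SE 0.40) and OSMR, which pairs with gp130 to bind oncostatin M, by 1.35 (SE 0.20). IL1RAP was lowest of its hypoxia group in replicate 2, with 341 normalized counts against 687 in replicate 1 and 698 in replicate 3. Its normoxia libraries had 104, 197 and 257.

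Of 30 genes of JAK and STAT3 signalling 8 had an entry, SOCS3 among them, 7 higher and 1 lower, with a median of 1.24. SOCS3 had the largest change of the 8. The kinase genes JAK3 and PIM1 rose by 1.60 (SE 0.25) and 1.57 (SE 0.13), and the transcription factors STAT2 and STAT6 by 1.25 (SE 0.21) and 1.23 (SE 0.12). CISH, an inhibitor of the SOCS family, had 201, 316 and 271 normalized counts in hypoxia, against 132, 130.3 and 102.9 in normoxia, and rose by 1.11 (SE 0.25), or 0.14 (edgeR adjusted p = 0.608) under listed totals. SOCS4, of the same family, was the 1 lower gene, with 345, 279.7 and 413 normalized counts in hypoxia, against 624, 946 and 1029 in normoxia (log2 fold change -1.32, SE 0.24). The 3 SOCS family genes with an entry thus moved in both directions.

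Of 41 genes of NF-kB signalling 7 had an entry, TNFAIP3 among them, 5 higher and 2 lower, with a median of 1.30. TNIP1, a partner of A20, had a log2 fold change of 1.30 (SE 0.20), the same to 2 decimals as TNFAIP3. The other rises were TNFAIP8 (1.83, SE 0.22), IER3 (1.36, SE 0.17) and the adhesion molecule gene ICAM1 (1.14, SE 0.12). Other genes overlap 26.5% of the exonic bases of IER3 and 23.6% of those of ICAM1, each with the largest share from an antisense gene. The 2 lower genes encode kinases that act upstream of NF-kB. CHUK, the alpha subunit of the IkB kinase, had 363, 307 and 381 normalized counts in hypoxia, against 739, 986 and 1179 in normoxia (log2 fold change -1.46, SE 0.21). MAP3K14, which activates CHUK in the non-canonical pathway, had 421, 467 and 377 in hypoxia, against 1141, 1110.3 and 1118 in normoxia (log2 fold change -1.41, SE 0.15).

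Of 27 acute phase genes 3 had an entry. The transcription factor gene CEBPD rose by 2.72 (SE 0.25) and the ceruloplasmin gene CP by 2.03 (SE 0.20), while the fibrinogen chain gene FGB had 25.1, 11.8 and 51.2 normalized counts in hypoxia, against 115, 122 and 101.99 in normoxia (log2 fold change -1.92, SE 0.46). FGB had the same order of hypoxia libraries as CXCL8, with replicate 2 lowest and replicate 3 highest.

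Of 27 AP-1 and early response genes, 17 had an entry, 16 higher and 1 lower, where 56.7% of all fitted entries were higher, and the median was 1.58. The difference from that share was not tested. The phosphatase gene DUSP1, an inhibitor of MAP kinases, had 4058, 3884 and 3469 normalized counts in hypoxia, against 369.8, 370.4 and 339 in normoxia (log2 fold change 3.40, SE 0.14). MAFK rose by 2.63 (SE 0.12), MAFF by 2.23 (SE 0.17), the AP-1 subunit FOS by 2.08 (SE 0.17), the phosphatase gene DUSP6 by 2.0 (SE 0.21) and KLF6 by 1.87 (SE 0.28). Other genes overlap 40.5% of the DUSP6 exonic bases, with the largest share from an antisense gene. The 1 lower gene, named after its value was seen, was EGR1, at -1.50.

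Cytokine messenger RNAs with AU-rich elements are degraded through the protein tristetraprolin, encoded by ZFP36. ZFP36 had 11522, 9297 and 11566 normalized counts in hypoxia, against 1379, 1570.0 and 1709 in normoxia (log2 fold change 2.80, SE 0.16). It was 1 of 3 entries among 19 messenger RNA stability genes, with AUH at 1.25 (SE 0.18), or 0.30 (edgeR adjusted p = 0.251) under listed totals, and ZC3H12C at -1.19 (SE 0.36).

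Of 20 genes of stress pathways known to induce GDF15, 4 had an entry, and these were higher at 1% oxygen. They were PPP1R15A at 1.82 (SE 0.19), TRIB3 at 1.70 (SE 0.19), VLDLR at 1.34 (SE 0.24) and the transcription factor gene DDIT3 at 1.05 (SE 0.23). Whether any of these genes acts on GDF15 was not tested. DDIT3 had 1794, 2251 and 1417 normalized counts in hypoxia, against 1068, 899.6 and 672 in normoxia. Its value was 0.52 (edgeR adjusted p = 0.0517) when the listed entries were scaled by TMM, a scaling that moved the median of all fitted entries by -0.53, and 0.08 (edgeR adjusted p = 0.716) under listed totals. Other genes overlap 39.6% of the DDIT3 exonic bases, with the largest share from MARS on the opposite strand.

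GDF15 belongs to the TGF-beta family but is not counted in the list of that family. Of its 32 genes 7 had an entry, 6 higher and 1 lower, with a median of 1.38. FSTL3, a secreted binder of activins, had 12204, 18680 and 11606 normalized counts in hypoxia, against 872, 616 and 653 in normoxia (log2 fold change 4.31, SE 0.26). INHBA, which encodes an activin subunit, had 71, 49 and 70 counts in hypoxia, against 10, 8 and 0 in normoxia (log2 fold change 3.52, SE 0.65). TGFB1 rose by 1.86 (SE 0.21), the inhibitor SMAD7 by 1.38 (SE 0.22) and BMP2 by 1.12 (SE 0.19), and the co-receptor gene TGFBR3 fell by 1.45 (SE 0.26). Under listed totals BMP2 was at 0.17 (edgeR adjusted p = 0.544).

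**Figure D5:**
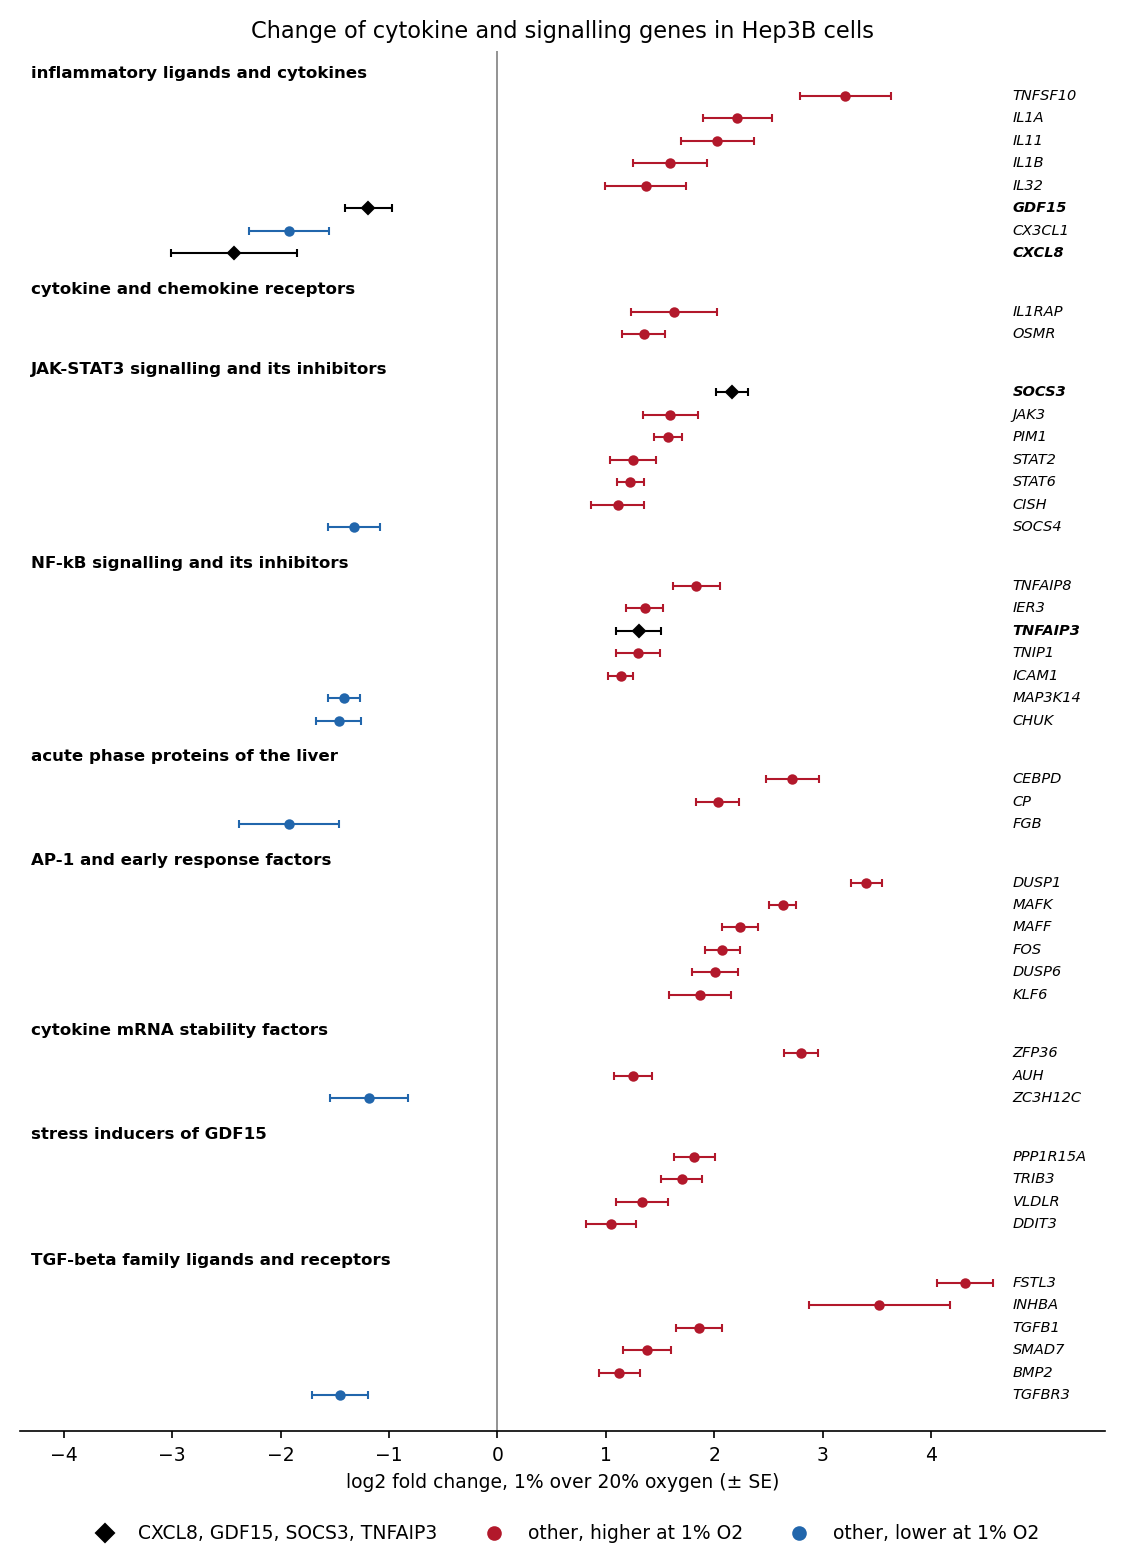
Log2 fold changes of 1% over 20% oxygen with SE for the named genes of 9 lists and for CXCL8, GDF15, SOCS3 and TNFAIP3 (black diamonds), with genes higher at 1% oxygen in red and lower in blue. IL6 is not drawn because its fold change is a lower bound. SOCS3, at 2.17, is the largest change of its list and GDF15, at -1.19, lies left of 0.

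The pathway names that the authors' deposited table attaches to entries give the same genes a second grouping. The counts below stand beside 56.7% of all fitted entries higher and 43.3% lower, and differences from these shares were not tested. The JAK-STAT signalling name is attached to 26 fitted entries, IL6 and SOCS3 among them, of which 19 were higher and 7 lower. The NF-kappa B name is attached to 16, with CXCL8 and TNFAIP3, of which 9 were higher and 7 lower. The TNF signalling name, with IL6, SOCS3 and TNFAIP3, has 17 higher and 7 lower of 24. The HIF-1 signalling name, which includes IL6, has 24 higher and 5 lower of 29. Cytokine-cytokine receptor interaction, with IL6, CXCL8 and GDF15, has 26 higher and 11 lower of 37. IL-17 signalling, with IL6, CXCL8 and TNFAIP3, has 12 higher and 4 lower of 16.

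For each of the 5 genes, the entries with the most alike profile over the 6 libraries were found by the root mean square difference of centred log2 normalized counts with 1 added, among 2458 entries. SOCS3 was closest to OPN3 (0.06), to the mitophagy receptor gene BNIP3 (0.07) and to F11R (0.07). BNIP3 had 9017, 8252 and 8542 normalized counts in hypoxia, against 2016, 1969 and 1894 in normoxia. TNFAIP3 was closest to PEAR1 (0.08), STK17A (0.09) and KCTD7 (0.09), and GDF15 to POLA2, LRRC20 and DOLK (0.07 each). IL6 was closest to C4orf47 (0.17), which was also at 0 in all normoxia libraries, and to HIST1H4H (0.17), a histone gene whose reads may be shared with near-identical copies, and NDRG1 (0.18), a measure that for IL6 depends on the 1 added to counts of 0. CXCL8 had the least close neighbours: HOOK1 at 0.25, ANGPT1 at 0.26 and TMEM268 at 0.29. HOOK1 had 17.1, 7.11 and 41.1 normalized counts in hypoxia, against 57.7, 95.1 and 130.9 in normoxia, and its longest transcript has 36.4% GC. ANGPT1 had the same order of hypoxia libraries, with 13.1, 3.55 and 19.1 normalized counts, against 48.2, 69.6 and 69.5 in normoxia. Its longest transcript has 36.0% GC. TMEM268 also had this order of hypoxia libraries, with 128.8, 32.0 and 207.6 normalized counts, against 472, 543 and 590.3 in normoxia. The longest TMEM268 transcript has 50.6% GC.

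Markers of cell types were set beside these values. Of 19 hepatocyte markers 7 had an entry, 2 higher and 5 lower, and their summed level was 16.2 to 17.6 FPKM in hypoxia, against 64.3 to 71.3 FPKM in normoxia. Most of both sums is the transcription factor gene CEBPA, at 11.2 ± 0.797 FPKM in hypoxia and 56.0 ± 4.12 FPKM in normoxia (SD, n = 3 each). Other genes overlap 43.4% of the CEBPA exonic bases, with the largest share from an antisense gene. The largest change of the list was a rise, of the fetuin gene AHSG (log2 fold change 2.37, SE 0.36), and the transferrin gene TF also rose (1.66, SE 0.20). CEBPA (-2.05, SE 0.16), the apolipoprotein gene APOB (-2.10, SE 0.46), FGB and the alpha-fetoprotein gene AFP (-2.05, SE 0.30) fell. AFP had 0.732, 0.837 and 0.663 FPKM in hypoxia, against 4.33, 4.10 and 2.76 in normoxia. It was thus detected in every library, but below the median entry of 4.53 FPKM in hypoxia and 5.10 FPKM in normoxia. The albumin gene ALB, named after its value was seen, is the other lower marker (-1.28). It averaged 1.74 ± 0.178 FPKM in hypoxia and 5.05 ± 1.08 FPKM in normoxia (SD, n = 3 each). Of 13 leukocyte markers 1 had an entry, the lysosomal gene CD68, at 114 to 127 FPKM in hypoxia, against 36.0 to 38.8 in normoxia. Other genes overlap 85.8% of the exonic bases of CD68, with the largest share from AC016876.2 on the same strand. Of 13 endothelial and stromal markers 2 had an entry, EGFL7 and CDH5, with a summed level of 28.9 to 63.5 FPKM in hypoxia, against 2.55 to 7.33 in normoxia. The defining markers PTPRC and PECAM1 had no entry and are not analysed here. Whether other cells play a part in the cytokine values was not tested.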

How the data were processed

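Messenger RNA of 6 Hep3B samples was sequenced, 3 at 1% oxygen and 3 at 20% oxygen. TRIzol extraction, a deoxyribonuclease step and a SMARTER mRNA-seq kit were used, per the labels' protocols. How reads were aligned and counted, on which build and with which strand setting, is not given in the sources used here. The authors deposited whole-number counts per entry and sample without normalization, and FPKM values scaled by transcript length and library total, per the file headers and the values. The authors also deposited an FDR (an adjusted p-value) and a log2 fold change per entry, positive where 1% oxygen was higher. Columns were matched to samples by the oxygen level and number in their names.

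Of 2683 lines, 2 hold no values. The table is limited to an FDR under 0.01 and an absolute log2 fold change over 1, where TMM scaling is not valid, so library scales were recovered from the authors' log2 fold changes using the 1442 entries above 200 counts in all 6 libraries. They were 0.994, 0.844 and 0.997 for hypoxia replicates 1, 2 and 3, and 1.06, 1.02 and 1.11 for normoxia replicates 1, 2 and 3. The median absolute residual was 0.000202 on the log2 scale. Fold changes thus follow the authors' scale and are no check of it. The 6 leading entries, whose deposited log2 fold change and own counts disagreed by more than 1 (log2), were left out, and 2675 were fitted.

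Counts were tested with edgeR 4.0.16 in R 4.3.3 (glmQLFit and glmQLFTest on group, filterByExpr, which removed 0 entries), adjusting p by Benjamini-Hochberg across all 2675 entries, and a call at an adjusted p under 0.05. SE is the size of the log2 fold change divided by the root of its F statistic. The common dispersion was 0.0494, estimated from entries selected as changed. Sequences and gene bounds came from RefSeq GRCh38.p14 and GENCODE 29. FPKM percentiles, ranges and motif counts used Python 3.11.15. Alternatives used limma 3.58.1 and DESeq2 1.42.0, other scales, no filter, a replicate block and leaving out each library.

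The 5 genes, the lists and the tests were chosen with earlier results of these data known. Besides the 5 genes, the rule names every list gene with an entry where there are at most 6, otherwise the 6 with the largest absolute log2 fold change, and the 3 entries most like each of the 5. The 12 lists hold 301 genes, of which 73 had an entry.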

Additional observations from a re-analysis of the deposited data

How the results depend on the processing

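Over the 14 alternatives run for each gene, IL6, CXCL8, GDF15 and SOCS3 kept their direction and their call. TNFAIP3 kept its direction, but its call ended under listed totals (0.35, adjusted p = 0.245 in edgeR, range over its alternatives 2.77e-08 to 0.245). Leaving out each library in turn gave log2 fold changes of -3.32 to -2.01 for CXCL8, -1.32 to -0.98 for GDF15, 2.10 to 2.22 for SOCS3 and 1.15 to 1.45 for TNFAIP3, and 2666 to 2675 of 2675 entries called. Listed totals called 1920 entries and TMM 2505. Neither scaling is valid over entries that were selected as changed. Shifts of the median entry were -0.53 (TMM), -0.27 (totals implied by FPKM) and -0.96 (listed totals) on the log2 scale, and TNFAIP3 was at 0.77 under TMM. The log2 ratio of group means was -1.45 in FPKM and -1.19 in counts over the recovered scale for GDF15, and 1.90 in FPKM and 2.17 in such counts for SOCS3. The difference follows from the 2 sets of library totals.

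Deviations of libraries with the same replicate number correlated at -0.39, -0.15 and 0.48 for numbers 1, 2 and 3. These deviations also moved with GC content and transcript length, so they cannot show whether the numbers pair the samples. With a replicate block, CXCL8 was at -2.61, GDF15 at -1.18, SOCS3 at 2.16, TNFAIP3 at 1.29 and 2675 entries were called, and no call changed. The low counts of IL6 and of CXCL8 at 1% oxygen limit their precision.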
